A study of Homo sapiens with 12 samples.

Results

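The response of HT1080 cells to phorbol 12-myristate 13-acetate (PMA) was compared, gene by gene, with their response to concanavalin A (ConA). Genes were taken when both experiments' tables of normalized counts listed them and their mean reached 10 in one or the other, which gave 15181 of the 16633 genes listed in either table. HT1080 is a fibrosarcoma cell line that carries an activating NRAS mutation, and all libraries came from this 1 line, labelled wt for its genotype. The PMA experiment held 3 libraries of cells given 40 nM PMA for 24 h and 3 of untreated cells (PMA controls 1 to 3). The ConA experiment held 3 libraries of cells given 40 µg/mL ConA for 24 h and 3 of its own untreated cells (ConA controls 4 to 6). All cells had been grown in biotin-depleted medium and were moved to the same medium with 1% serum for the treatment. No control library was shared, so the change with each treatment was measured within its own experiment, and treatment and experiment cannot be told apart beyond that.

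PMA enters the cell and stands in for diacylglycerol at protein kinase C, which switches on the ERK cascade and the transcription factors AP-1 and NF-kB. ConA is a plant lectin that binds mannose- and glucose-bearing glycans on many surface proteins and clusters them. NF-kB and AP-1 drive chemokine and protease genes in fibroblast-like cells. Interferon-stimulated genes are driven by another route, in which interferons bind their receptors and JAK kinases activate STAT proteins, which with IRF9 bind the interferon-stimulated response element (ISRE) in promoters.

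Normalized counts are estimated reads per gene that the authors divided by 1 factor per library, so levels are compared between libraries and not between genes. The libraries held 33635937 to 45592979 estimated reads, which leaves the spread between 3 libraries as the limit on precision for all but genes with a few reads. Whether the 3 libraries of a group came from separate cultures is not stated, so p-values measure the spread between these libraries, which may be technical. The tables were normalized separately, and the median gene stood 0.18 (log2) higher in the ConA controls than in the PMA controls. Control levels differed by at least 1 (log2) between the experiments for 696 genes (4.58% of those tested). Mesenchymal markers were high throughout, with 10 of 10 listed in the PMA table and 9 of 10 in the ConA table. Their sums were 547314 to 570799 normalized counts in the PMA controls, 599150 to 627236 with PMA, 639297 to 717621 in the ConA controls and 461640 to 496686 with ConA. Of 16 T and NK cell markers, 15 were listed in the PMA table, with summed levels of 1622 to 1904 normalized counts in its controls and 2484 to 3433 with PMA. Of the same markers the ConA table listed 4, with sums of 71.1 to 80 in its controls and 137 to 155 with ConA. Of 9 monocyte and macrophage markers, 6 were listed in the PMA table (sums of 5309 to 5777 and, with PMA, 7576 to 7783) and 4 in the ConA table (6175 to 6604 and, with ConA, 17578 to 20786), nearly all of it CD68. Of 11 epithelial markers, 5 and 9 were listed, and their sums were 27765 to 29657 in the PMA controls, 15703 to 16337 with PMA, 39318 to 40882 in the ConA controls and 34732 to 37634 with ConA. B cell markers were near 0 (1 and 3 of 8 listed, sums of at most 48.5), and no erythroid marker of 7 was listed. The part of these markers in the results was not tested.

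A change was called at an absolute log2 difference of at least 1 on log2(value + 1) with an adjusted p of at most 0.0001 from limma over all 12 libraries. With PMA, 601 genes were called higher (3.96% of those tested) and 909 lower (5.99%). With ConA, 825 were called higher (5.43%) and 451 lower (2.97%). Subtracting the ConA change from the PMA change gave what is called the difference here, which passed the same thresholds for 1587 genes. It was above 0 for 551 of them (3.63%), meaning a higher response to PMA, and below 0 for 1036 (6.82%), meaning a higher response to ConA. In 1340 of the 1587 (84.4%) the treated levels themselves also stood 2-fold or more apart with the same sign, and in 123 (7.75%) the control levels differed by at least 1. The median changes over all genes were -0.01 with PMA, -0.01 with ConA and -0.01 for the difference.

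The called genes fell into 4 classes. PMA alone moved 547 genes, 218 up and 329 down, which were called with PMA, were not called with ConA, and passed the test of the difference. ConA alone moved 516 genes, 389 up and 127 down. Both treatments moved 315 genes in the same direction, 183 up and 132 down, and 67 genes in opposite directions. Of these 67, 57 fell with PMA while rising with ConA and 10 did the reverse. A further 959 of the 2022 genes called with 1 treatment did not pass the test of the difference and belong to neither the PMA-only nor the ConA-only class. Another 391 passed the test of the difference with no call for either treatment, and 12386 genes (81.6%) passed none of the 3 tests.

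A call with 1 treatment does not show that the other left the gene unmoved, so the interval of the other change was read too. Among the PMA-only genes, the 95% interval of the ConA change lay within -1 to 1 (less than 2-fold either way) for 447 of 547. Among the ConA-only genes, the interval of the PMA change lay within these bounds for 422 of 516. Of the 315 genes that changed in the same direction, the interval of the difference lay within the same bounds for 153, the difference was called larger with PMA for 41 and larger with ConA for 25, and 96 stayed undecided.

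**Figure D1:**
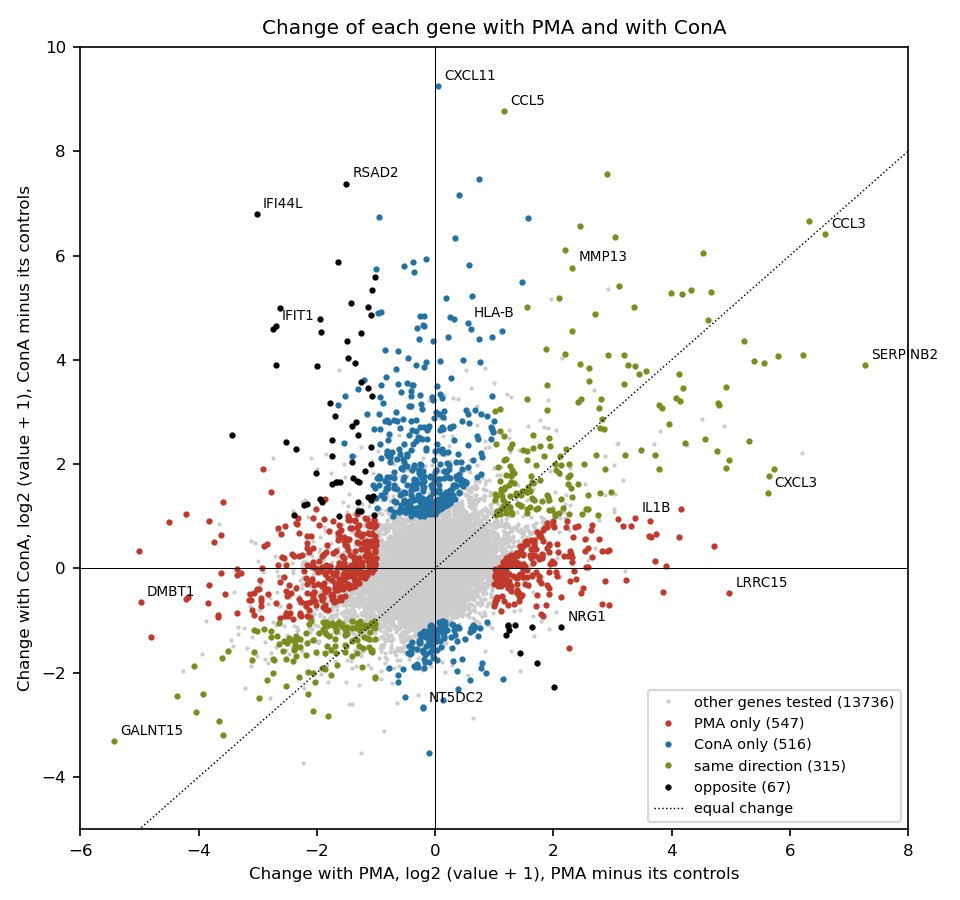
Change with PMA (x axis) against change with ConA (y axis) for each of 15181 genes, both as log2(value + 1) of the treated libraries minus their own controls, coloured by class. Genes of the opposite class lie mostly in the upper left, where IFI44L (-3.02 with PMA, 6.79 with ConA) is farthest out, ConA-only genes rise along the vertical axis to CXCL11 (9.25), and SERPINB2 (7.27 with PMA, 3.90 with ConA) lies below the dotted line of equal change.

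Of the 5 genes with the largest opposite changes, 3 (IFI44L, IFIT1 and MX2) were interferon-stimulated genes, which fell with PMA and rose with ConA. Parts of 4 promoters of interferon-stimulated genes are shown here because the ISRE letters recur in them, those of IFIT1, ISG15 and RSAD2 from the opposite class and that of BST2 from the ConA-only class. A match to GAAANNGAA (N is any base), a short form of the ISRE, was searched on both strands of the 250 bases before each transcription start, from RefSeq promoters of GRCh38.p14. In the sequences below, 100 bases each, capitals mark every match to this motif, to the AP-1 motif TGANTCA or to the NF-kB motif GGANTTNCC, and lower case the rest.
IFIT1 (chr10:89392469-89392568, plus strand): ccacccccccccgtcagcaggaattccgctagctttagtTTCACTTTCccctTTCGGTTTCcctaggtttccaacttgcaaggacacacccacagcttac
ISG15 (chr1:1013344-1013443, plus strand): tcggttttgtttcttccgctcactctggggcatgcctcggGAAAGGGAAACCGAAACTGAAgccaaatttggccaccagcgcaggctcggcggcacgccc
RSAD2 (chr2:6865760-6865859, plus strand): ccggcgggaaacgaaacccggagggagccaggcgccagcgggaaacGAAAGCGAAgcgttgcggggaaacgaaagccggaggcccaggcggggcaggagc
BST2 (chr19:17405704-17405803, minus strand): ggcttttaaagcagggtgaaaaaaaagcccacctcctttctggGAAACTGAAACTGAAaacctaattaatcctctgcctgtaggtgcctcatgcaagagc

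IFIT1 holds 2 matches to the ISRE letters, ISG15 holds 3 that overlap, RSAD2 holds 1 and BST2 holds 2 that overlap. Of 15181 genes tested, 11567 had a RefSeq promoter under the same symbol, and 5.65% of these held the ISRE letters (7.06% of all 27305 promoters in the table). The share was 24.3% (9 of 37 promoters) among the 57 genes that fell with PMA and rose with ConA, and 20.5% (59 of 288) among ConA-only genes that rose. It was 10.9% (14 of 129) among genes that rose with both, 4.22% (7 of 166) among PMA-only genes that rose and 5.43% (5 of 92) among ConA-only genes that fell. A match is a description of the letters and does not show binding.

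IFIT1, which binds viral RNA that lacks the host cap methylation, stood at 1524, 1475 and 1337 normalized counts in the PMA controls (replicates in order here and below) and at 224, 215 and 225 with PMA. In the ConA controls it stood at 2144, 2359 and 2067, and with ConA at 48959, 59149 and 57584. The 4 groups did not overlap, the PMA libraries were the lowest of all 12 and the ConA libraries the highest. Lack of overlap between treated libraries and their own controls was common. It held for 10307 of the 15181 genes tested with PMA and for 10451 with ConA. The change of IFIT1 was -2.70 (log2) with PMA and 4.65 with ConA, a difference of -7.35 (standard error 0.10, adjusted p = 8.34e-19). In these bulk libraries a smaller share of expressing cells and less RNA per cell cannot be told apart.

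MX2, a dynamin-like GTPase that restricts virus replication, read 513, 438 and 457 normalized counts in the PMA controls and 76.6, 81.7 and 67.1 with PMA. In the other experiment it read 536, 537 and 518 in the controls and 16177, 16724 and 18045 with ConA. The 2 sets of controls were close to each other, and the treated libraries lay on either side of them. The difference was -7.63 (standard error 0.11, adjusted p = 1.14e-18), from changes of -2.63 and 5.00.

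IFI44L, a gene known mainly as a marker of the interferon response, had the largest difference below 0 of all genes tested. Its controls read 55.3, 36.7 and 45.1 normalized counts against 5.8, 2.85 and 5.99 with PMA, and 57.3, 57 and 56.1 against 5758, 7002 and 6552 with ConA. No treated library overlapped a control. The changes were -3.02 and 6.79, a difference of -9.82 (standard error 0.28, adjusted p = 5.16e-15).

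RSAD2 (viperin, which makes a chain-terminating nucleotide) went from 338, 308 and 254 normalized counts to 89.4, 104 and 123 with PMA and from 405, 415 and 405 to 61806, 71725 and 71347 with ConA, a difference of -8.88 (standard error 0.15). ISG15, a ubiquitin-like modifier, went from 2717, 2858 and 2498 to 1099, 1292 and 1262 with PMA and from 3469, 4026 and 3579 to 124144, 118419 and 113699 with ConA, a difference of -6.15 (standard error 0.10). In both genes the fall with PMA (-1.14 for ISG15) was smaller than the rise with ConA (7.38 and 5.01), with no overlap of treated and control libraries. OAS1, which makes the 2'-5' oligoadenylate that activates RNase L, changed by -1.99 with PMA and 3.88 with ConA, and XAF1, a pro-apoptotic interferon target, by -1.93 and 4.53.

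The list of antiviral effectors of the interferon response had 52 members tested. With ConA 51 rose and none fell, and with PMA none rose and 15 fell, all 15 of them of the opposite class. The difference was called below 0 for 51, the exception being TRIM25 (-0.71). The median change was -0.58 with PMA and 3.12 with ConA, with a median difference of -3.57 beside -0.01 over all genes. The list was written with earlier results of these data known, and its counts are a description.

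Most of these effectors sat on the ConA side without a call for PMA. BST2 (tetherin, which holds budding virus at the membrane) went from 212, 275 and 184 normalized counts to 92.9, 115 and 125 with PMA and from 414, 466 and 454 to 24247, 23572 and 23652 with ConA. Its change with PMA lay just short of the threshold, and it passed with PMA control 1, PMA control 3, PMA 2 or PMA 3 left out (-1.03 to -1.13), which would place it in the opposite class. OASL, an oligoadenylate synthetase relative without the enzyme activity, moved by 5.87 with ConA and -0.37 with PMA, and IFI27 by 3.90 and -0.32. For both, the 95% interval of the PMA change lay within 2-fold.

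The sensors and signal carriers of the interferon route followed on a smaller scale. DDX58 (RIG-I) and IFIH1 (MDA5), which detect viral RNA in the cytosol, rose with ConA by 3.41 and 4.17 and had changes of -0.40 and -0.63 with PMA. TLR3, the endosomal receptor for double-stranded RNA, was of the opposite class. It read 301, 284 and 295 normalized counts in the controls and 89.4, 77.9 and 95.8 with PMA, and 519, 443 and 439 in the controls and 2329, 2684 and 2691 with ConA. Of 15 nucleic acid and toll-like sensors, 10 rose with ConA and none fell, 2 rose and 1 fell with PMA, and 9 had a difference called below 0 and none above.

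STAT2, a signal carrier of the interferon receptors, changed by 1.98 and -0.24 and IRF1 by 1.22 and -0.45 with ConA and PMA in that order. IRF9, the DNA-binding partner of STAT2, had a difference of -1.20 that was called although neither its ConA change (0.82) nor its PMA change (-0.39) was. Of 13 interferon ligands, receptors, JAK kinases and SOCS inhibitors tested, 1 rose with each treatment and no difference was called. Over all genes, 3.96% rose with PMA and 5.43% with ConA. The type I interferon IFNB1 and the type III interferon IFNL1 were listed in the ConA table alone. IFNL1 read 0, 3 and 2 normalized counts in the ConA controls and 36, 39.7 and 40.4 with ConA, and IFNB1 read 0, 1 and 2 and then 8.01, 11.5 and 2.7.

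**Figure D2:**
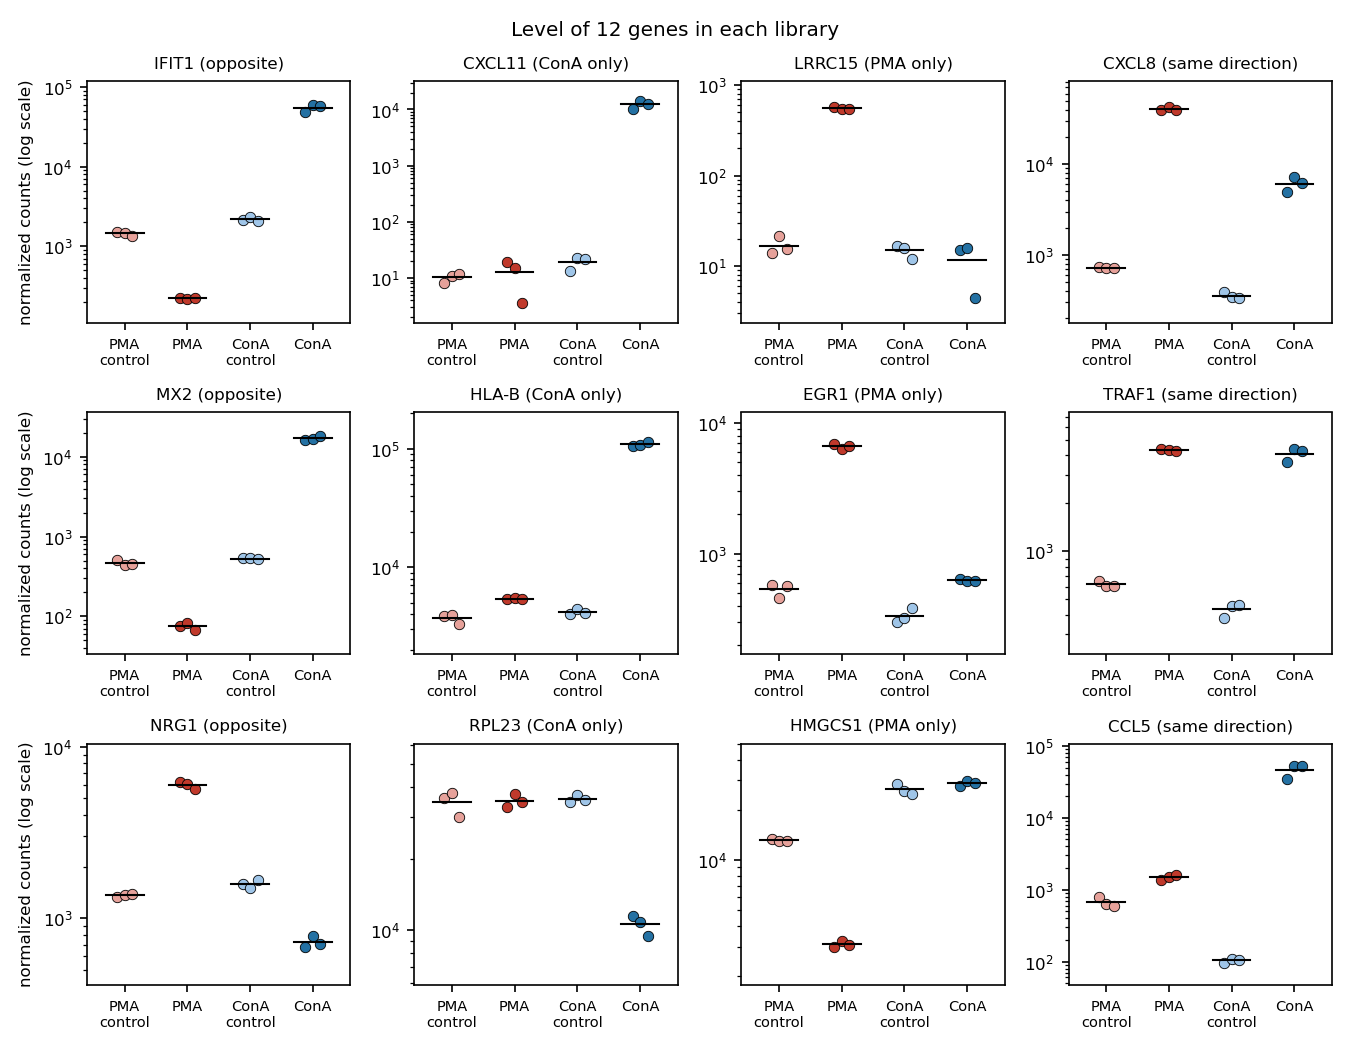
Level of 12 genes in normalized counts (y axis, log scale) in each of the 12 libraries, with a horizontal bar at the mean of each group of 3. IFIT1 and MX2 go down with PMA and up with ConA, NRG1 does the reverse, HLA-B is highest with ConA, and CXCL8 rises with both but farther with PMA.

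Other genes of the opposite class stood outside the interferon lists, which held 17 of the 57. The lists do not hold every interferon-stimulated gene, and whether genes outside them respond to interferon was not tested. LGALS9 (galectin-9, a sugar-binding ligand of T cell inhibitory receptors) read 92.2, 76.9 and 82.1 normalized counts in the PMA controls and 22.1, 23.8 and 33.5 with PMA, and 163, 158 and 166 in the ConA controls and 9109.7, 9569 and 10084 with ConA. TNFSF13B (BAFF, a B cell survival factor) changed by -1.94 with PMA and 4.78 with ConA, and SLC15A3, a lysosomal peptide and histidine transporter, by -1.42 and 5.09. PDGFRL, a secreted relative of PDGF receptors, moved almost evenly both ways, by -2.52 and 2.42. PTN (pleiotrophin, a heparin-binding growth factor) read 14.8, 17.9 and 15.3 in the PMA controls and 2.32, 3.8 and 0 with PMA, against 28.1, 25 and 23 in the ConA controls and 551, 729.6 and 645 with ConA. DUOX2, an oxidase that makes hydrogen peroxide at the cell surface, read 12, 8.94 and 14.4 and, with PMA, 1.16, 0 and 2.39, against 9.38, 9.5 and 12 and, with ConA, 185, 162 and 159. Both genes had only a few reads with PMA, and their calls with PMA were lost under some settings (no variance trend, a pseudocount of 0.1), while their differences of -7.35 and -6.61 were called.

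The 10 genes that rose with PMA and fell with ConA held a ligand and an inhibitor of the EGF receptor family. NRG1 (neuregulin 1, a ligand of ERBB3 and ERBB4) read 1330.5, 1364 and 1392 normalized counts in the PMA controls and 6229, 6026 and 5680.3 with PMA, and 1587, 1499.8 and 1669 in the ConA controls and 685, 792 and 711 with ConA. ERRFI1 (MIG6, which binds and inhibits EGFR) read 18412, 17769 and 17878 and then 45873, 46631 and 45169 with PMA, and 19030.3, 18267 and 18021 and then 8351, 8662 and 8926 with ConA. The controls of the 2 experiments lay side by side for both genes, PMA libraries were all above them and ConA libraries all below. The differences were 3.25 (standard error 0.09, adjusted p = 1.53e-15) and 2.44 (standard error 0.06, adjusted p = 5.74e-16).

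ODC1, the first enzyme of polyamine synthesis, read 12416, 12827 and 12701 normalized counts in the controls and 30114, 29617 and 27424 with PMA, and 10082, 10604 and 9839 in the controls and 4043, 4420.3 and 4137 with ConA. Its PMA change lost its call after quantile normalization (0.98). SLC14A1, a urea transporter, changed by 1.23 with PMA and -1.11 with ConA, ATP2B4, a calcium pump of the plasma membrane, by 1.25 and -1.19, and ASB1, a SOCS-box protein of a ubiquitin ligase, by 1.24 and -1.09. FLRT2, a membrane protein of cell adhesion and guidance, changed by 1.64 and -1.13. The clustered protocadherin PCDHGC5 changed by 1.73 and -1.82, but its constant exons are shared with the other gamma protocadherins, so its reads may be split between them. The uncharacterized LOC101928143 changed by 1.44 and -1.62 from control levels of 199 to 235 and 78.2 to 112 normalized counts, which themselves stood apart.

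ARHGAP36, named as a GTPase-activating protein, completed the 10 with low counts. It read 15.7, 16.1 and 16.2 normalized counts in the PMA controls and 68.5, 67.5 and 67.1 with PMA, and 20.8, 17 and 14 in the ConA controls and 3, 1.05 and 5.39 with ConA. The groups did not overlap. Its PMA change of 2.01 was past the thresholds with all libraries (adjusted p = 9.15e-05) and lost the call with any 1 of the PMA libraries, PMA controls or ConA controls left out (2.00 to 2.02, adjusted p from 1.37e-04 to 6.65e-04). Without ConA control 4 or 5 the ConA change also lost its call (-2.14, adjusted p = 2.15e-04, and -2.28, adjusted p = 1.31e-04). The difference of 4.29 (standard error 0.50, adjusted p = 1.12e-06) was called in each of those fits.

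Among ConA-only genes that rose, CXCL11, a chemokine that draws CXCR3-bearing T cells, moved most. It read 8.3, 10.7 and 11.7 normalized counts in the PMA controls and 19.7, 15.2 and 3.59 with PMA, which overlapped, and 13.5, 23 and 22 in the ConA controls and 10243, 13896 and 12696 with ConA. The ConA change was 9.25 and the PMA change 0.05, a difference of -9.20 (standard error 0.54, adjusted p = 1.34e-10). Its promoter is printed because the matches in it are those of AP-1 and NF-kB, with none of the ISRE letters in these 250 bases.
CXCL11 (chr4:76036098-76036197, minus strand): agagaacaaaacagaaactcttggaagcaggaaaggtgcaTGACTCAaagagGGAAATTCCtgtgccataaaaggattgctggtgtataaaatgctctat

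The guanylate-binding proteins are GTPases that attack intracellular microbes. All 6 that were tested rose with ConA, and 1 rose (GBP6) and 1 fell (GBP2) with PMA. GBP4 read 23.1, 36.7 and 26.2 normalized counts in the PMA controls and 36, 53.2 and 56.3 with PMA, and 10.4, 18 and 9.02 in the ConA controls and 1976, 2484 and 2464 with ConA. GBP5 read 92.2, 68 and 83.1 and then 80.1, 118 and 128 with PMA, and 12.5, 14 and 17 and then 1894, 2391 and 2405 with ConA. PMA libraries overlapped their controls for both, and ConA libraries stood far above theirs. The median change of the family was 0.38 with PMA and 4.09 with ConA.

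Most genes of antigen presentation by MHC class I rose with ConA, and none had a call with PMA. Of 13 genes of MHC class I and peptide loading, 12 rose with ConA, all 12 had a difference below 0, and the median was 0.11 with PMA and 2.36 with ConA. HLA-B read 3876, 3915 and 3295 normalized counts in the PMA controls and 5410.2, 5446 and 5326 with PMA, and 4007, 4397 and 4102 in the ConA controls and 104860.0, 108621 and 113415 with ConA. B2M, the light chain shared by class I molecules, read 28412, 28569 and 25451, then 28308, 31276 and 30119 with PMA, which overlapped, and 32884, 35398 and 31623, then 154360.0, 169628 and 163956 with ConA. Reads of HLA genes can be split between near-identical alleles and relatives. TAP1, a subunit of the transporter that loads peptides, changed by 2.66 with ConA and -0.14 with PMA, and NLRC5, the class I transactivator, by 2.70 and 0.26.

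Of 10 MHC class II genes, 2 rose with ConA (5.43% of all genes did), and 1 fell with PMA (5.99% did). CD74, the invariant chain, rose by 3.27 with ConA, while its PMA libraries (854, 1106 and 1522 normalized counts) overlapped their controls (1067, 932 and 1139). CIITA, the class II transactivator, fell with PMA (-1.55) and had a change of 0.53 with ConA. Of 5 immunoproteasome and PA28 subunits, 2 rose with ConA and 4 had a difference below 0, with PSMB9 at 2.25 with ConA and -0.82 with PMA. None of 14 constitutive proteasome core subunits was called in any of the 3 tests, and their median difference was 0.31.

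Complement genes, whose products tag and lyse targets, also leaned to ConA. Of 17 tested, 10 rose with ConA and none fell, and 2 rose and 1 fell with PMA. A difference was called below 0 for 11 and above 0 for 1. Over all genes, 5.43% rose with ConA, 3.96% rose and 5.99% fell with PMA, and 6.82% had a difference below 0. C1S, a protease of the classical pathway, read 1924, 1787 and 1597 normalized counts in the PMA controls and 1311, 1396 and 1369 with PMA, and 2267, 2085 and 2142 in the ConA controls and 23269, 25225 and 26092 with ConA. CFB, the protease of the alternative pathway, read 199, 184 and 130.0, then 116, 125 and 237 with PMA, and 85.5, 94 and 97.2, then 4912, 5843 and 6349 with ConA. C3, the central component, rose with both, by 2.10 with PMA and 5.19 with ConA. The one with a difference above 0 was C5AR1, the receptor for C5a, which rose with PMA (2.04) and not with ConA (-0.06, interval within 2-fold). CFI, which inactivates C3b, fell with PMA (-1.92) with a ConA change of 0.24, a difference of -2.15.

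Ligands of the TNF family were split between the treatments. TNFSF10 (TRAIL, which triggers death receptors) read 51.6, 81.4 and 54.2 normalized counts in the PMA controls and 32.5, 20 and 46.7 with PMA, and 62.5, 52 and 63.1 in the ConA controls and 5659, 6907 and 6617 with ConA. Its difference was -7.68 (standard error 0.31). Without PMA 3 its PMA change passed the thresholds as a fall (-1.23, adjusted p = 5.44e-05). TNFSF15 (TL1A), in turn, read 105, 98.4 and 96.6 and then 899, 896 and 797 with PMA, and 62.5, 50 and 54.1 and then 96.1, 105 and 123 with ConA. Its PMA change was 3.10 and its ConA change 0.94, which passed the thresholds without ConA control 4 (1.03) or ConA 1 (1.02). Of 22 TNF ligands and receptors, 4 rose and 6 fell with PMA, 9 rose and none fell with ConA, and 2 had a difference above 0 and 11 below.

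Other ConA-only genes that rose included CEACAM1, an adhesion molecule of epithelia and leukocytes (ConA change 5.80), IL18BP, which neutralizes interleukin-18 (4.66), PMAIP1 (NOXA, a pro-apoptotic BCL2 relative, 2.49), FGF2 (2.49) and the EGF receptor ligand BTC (3.82). VCAM1, a vascular adhesion molecule, read 0 in all 3 ConA controls and 16, 43.9 and 28.8 normalized counts with ConA, at least 9.71-fold higher against 3 estimated reads per library. In the PMA experiment it read 39.6, 38.5 and 19 in the controls and 34.8, 40.9 and 34.7 with PMA, so the controls of the 2 experiments themselves differed. The chemokine CCL4 read 20.3, 17.9 and 12.6 and then 47.6, 56.1 and 50.3 with PMA, and 0, 1 and 1 and then 142, 187 and 173 with ConA. Its rise with PMA (1.57) passed the thresholds without ConA control 4 (adjusted p = 2.02e-05). LTB and GBP5, like CCL4 and VCAM1, had higher control levels in the PMA experiment, where the T and NK cell markers were listed (LTB 144 to 348 normalized counts against 1.04 to 6 in the ConA controls), and the part of those markers was not tested.

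ConA-only genes that fell were led by KRT3, NT5DC2, DANCR, IL16 and SYNDIG1. NT5DC2, a 5'-nucleotidase domain protein, read 2284, 2286 and 2376 normalized counts in the PMA controls and 2089.6, 1952 and 1974 with PMA, and 4960.5, 5353 and 5645 in the ConA controls and 885, 779.7 and 825 with ConA. Its control levels differed between the experiments by more than 2-fold. DANCR, a long non-coding RNA that hosts small nucleolar RNAs, read 1617, 1730.5 and 1518, then 1397, 1429.6 and 1412 with PMA, and 1812, 2191 and 1907, then 332, 310.4 and 295 with ConA. Their ConA changes were -2.68 and -2.65, and their PMA changes of -0.21 and -0.20 had intervals within 2-fold. KRT3, a keratin of the cornea, went from 96.9, 77 and 79.1 to 15, 4.18 and 3.59 with ConA (-3.55). IL16, a chemoattractant cytokine, and SYNDIG1, a synapse protein, had ConA changes of -2.53 and -2.47.

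The same class held genes of the protein synthesis machinery. RPL23, a protein of the large ribosomal subunit, read 35834, 37948 and 29911 normalized counts in the PMA controls and 33098, 37270.1 and 34759.8 with PMA, and 34594, 36980.4 and 35311 in the ConA controls and 11430.0, 10866 and 9443 with ConA. Only the ConA libraries stood apart. RPLP0, of the ribosomal stalk, changed by -1.61 with ConA and -0.21 with PMA, and EEF2, the translocase of elongation, by -1.44 and -0.11. EIF4B, which helps unwind mRNA at initiation, changed by -1.90 and -0.29. Of 83 cytoplasmic ribosomal protein genes, 25 fell with ConA and none rose, none was called with PMA, and 19 had a difference above 0. The median changes were -0.85 with ConA and -0.08 with PMA, and the difference was above 0 for 82 of 83 members, with a median of 0.79 (0.57 after quantile normalization, when 21 fell with ConA and 11 differences were called). Of 69 translation factors, 7 fell and 1 rose with ConA, beside 2.97% and 5.43% of all genes. Called differences were above 0 for 11 and below 0 for 2, beside 3.63% and 6.82% of all genes. The one that rose, EIF2AK2 (PKR, 1.87 with ConA and -0.28 with PMA), is an interferon-stimulated kinase that blocks initiation.

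Nuclear-encoded respiratory chain genes shifted the same way below the threshold, with 1 of 80 falling with ConA (2.97% of all genes did). Their median was -0.52 with ConA and -0.04 with PMA, and the difference was above 0 for 79 of 80. No mitochondrially encoded gene was listed in either table. Targets of ATF4, which answers amino acid shortage, were lower with ConA too. Of 20, 5 fell and 1 rose with ConA, and 8 differences were above 0 and 2 below. CHAC1, which degrades glutathione, read 2319.7, 2319 and 2273, then 2087, 2148 and 2233 normalized counts with PMA, and 2230.0, 2446 and 2346, then 816, 628 and 587 with ConA. TRIB3, an ATF4 feedback inhibitor, changed by -1.19 with ConA and 0.32 with PMA, DDIT4, an inhibitor of mTORC1, by -1.62 and -0.41, and ATF5 went the other way (1.71 and 0.44).

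Of 42 genes that assemble and trim the N-glycans to which ConA binds, none was called with PMA, 2 fell with ConA (2.97% of all genes did) and 3 had a difference above 0 (3.63% of all genes did). The 2 were MGAT5, which starts a complex-type branch, with 4820.2, 4573 and 5003 normalized counts, 4942, 4762 and 4976 with PMA, 7078, 5845 and 6618 and, with ConA, 2863, 2633 and 2501, and ALG14 (-1.32 with ConA and -0.16 with PMA). Of 10 protein kinase C and D isoforms, among them the targets of PMA, none was called with PMA. With ConA 1 rose (5.43% of all genes did) and 1 fell (2.97% did). The latter was PRKCA (-1.91), which had a PMA change of -0.78.

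Among PMA-only genes that rose, LRRC15, a leucine-rich repeat membrane protein of stroma, had the largest change and the largest difference above 0 of all genes tested. It read 13.8, 21.5 and 15.3 normalized counts in the controls and 575, 543 and 551 with PMA, and 16.7, 16 and 12 in the controls and 15, 15.7 and 4.49 with ConA. PRR9, a proline-rich protein of skin, read 32.3, 36.7 and 31.6, then 903, 908 and 906 with PMA, and 15.6, 7 and 7.01, then 13, 11.5 and 13.5 with ConA. ABCA13, an ABC transporter, read 115, 106 and 112, then 1705, 1762 and 1588 with PMA, and 58.4, 76 and 68.1, then 64.1, 66.9 and 79.1 with ConA. PMA libraries stood far above every other library for all 3, and ConA libraries overlapped their controls. The differences were 5.46 (standard error 0.47), 4.30 (standard error 0.34) and 3.85 (standard error 0.16).

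DCDC2C, a doublecortin-domain protein, and MUC20, a membrane mucin, completed the leading 5 with PMA changes of 4.16 and 4.13. Their differences of 3.02 and 3.53 rested on low counts outside the PMA libraries. That of DCDC2C lost its call with any of PMA control 1, PMA control 2, PMA 1, 2 or 3, ConA control 4, ConA control 6 or ConA 3 left out (2.79 to 3.08), and that of MUC20 without PMA 2 (3.45) or PMA 3 (3.52). The ConA change of DCDC2C (1.14, adjusted p = 0.00642) would be called as a rise at an adjusted p of at most 0.05. SYT16, a synaptotagmin, rose by 3.85 with PMA with a difference of 4.30.

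Targets of the ERK cascade leaned to PMA. EGR1, an immediate early transcription factor, read 575, 461 and 569.6 normalized counts in the controls and 6845, 6356 and 6655 with PMA, and 301, 324 and 383 in the controls and 639.9, 623 and 618 with ConA. Its change was 3.63 with PMA and 0.91 with ConA (1.00 and past the threshold without ConA control 6), a difference of 2.73 (standard error 0.12). Of 16 ERK feedback phosphatases, Sprouty and SPRED inhibitors, 4 rose and 1 fell with PMA, 1 rose with ConA, and 5 differences were above 0 and 1 below. SPRY2 read 3032, 3002 and 3066, then 10858, 11239 and 11231 with PMA, and 3076, 3026 and 3097, then 1854, 1901 and 1867 with ConA. DUSP5, an ERK phosphatase of the nucleus, changed by 2.31 with PMA and 0.21 with ConA, whereas DUSP4 fell with PMA (-1.38, ConA change -0.09).

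EGF receptor family genes moved with both treatments in different members. Besides NRG1 and ERRFI1, the receptor EGFR rose with PMA (1.37, ConA change -0.18 with overlap of the ConA groups) and the ligand AREG rose (2.01, ConA change 0.80), while the ligand TGFA fell with PMA (-1.98, ConA change -0.30). Of 10 such genes, 4 differences were called above 0 and 3 below, beside 3.63% and 6.82% of all genes.

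Inflammatory genes of the PMA-only class included prostaglandin and interleukin genes, whose families also moved with ConA. Of 11 prostaglandin genes, 4 rose and 2 fell with PMA, 3 rose with ConA, and 2 differences were above 0 and 3 below. Of 12 interleukin-1 family genes, 7 rose with each treatment, and 3 differences were above 0 and 3 below. Of 9 interleukin-6 family genes, 4 rose and 2 fell with PMA, 1 rose with ConA, and 2 differences were above 0. PTGS2 (COX-2, the inducible step of prostaglandin synthesis) read 752, 802 and 884 normalized counts in the controls and 9664, 10111 and 10244 with PMA, and 1161, 1083 and 1037 in the controls and 1431, 1803 and 1819 with ConA. PTGS1 (COX-1) also rose with PMA (2.53, ConA change 0.33), and PTGES, which makes prostaglandin E2 from their product, fell with PMA (-2.66) with a ConA change of 0.78. IL1B read 21691, 21669.6 and 19385, then 212324, 226734 and 217958 with PMA, and 16962, 17601 and 16464, then 30676, 35421 and 34282 with ConA. Its ConA change of 0.97 passed the threshold without ConA 1 (1.04), and its difference was 2.42 (standard error 0.08, adjusted p = 8.99e-14). LIF, of the interleukin-6 family, changed by 1.93 with PMA and -0.06 with ConA.

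Some matrix and growth factor genes that rose with PMA were also in this class. Of 24 matricellular and fibrillar genes, though, 2 rose and 8 fell with PMA, beside 3.96% and 5.99% of all genes. Of 28 ADAM and ADAMTS genes, 5 rose and 6 fell with PMA, and 3 rose and 1 fell with ConA. Of 20 matrix metalloproteinases and TIMPs, 7 rose and 3 fell with PMA, and 5 rose and 3 fell with ConA. Among these 20, 6 were called in the same direction with both treatments and 1 was of the PMA-only class. INHBA, the activin A subunit, read 2427, 2352 and 2629 normalized counts, then 24495, 24929 and 24058 with PMA, and 2469.7, 2305 and 2192, then 3744, 4356 and 4114 with ConA. HAS2, which makes hyaluronan, read 458, 423 and 490.0, then 4306, 4371 and 4173 with PMA, and 1366, 1389.8 and 1344, then 1108, 1189 and 1229.9 with ConA, with controls that differed by more than 2-fold between the experiments. TIMP1, a metalloproteinase inhibitor, changed by 2.95 with PMA and 0.36 with ConA, ADAMTS18 by 2.83 and -0.68, and SPP1 (osteopontin) by 1.71 and -0.72. The YAP targets CCN1 and CCN2 changed by 1.19 and 1.27 with PMA and by 0.12 and -0.32 with ConA. After quantile normalization CCN1 lost its PMA call (0.94) and that of its difference (0.76).

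PMA-only genes that fell were led by NWD1, DMBT1, CDH7, F2RL3 and FAM163A. DMBT1, a scavenger-receptor protein of mucosa, read 643, 604 and 736 normalized counts in the controls and 23.2, 19 and 18 with PMA, and 1507, 1332 and 1456 in the controls and 895, 824 and 1022 with ConA. Its controls were higher in the ConA experiment. Its PMA change was -4.98 and its ConA change -0.65, a difference of -4.33 (standard error 0.15, adjusted p = 9.56e-14). F2RL3 (PAR4, a thrombin receptor) read 44.3, 53.7 and 62.3, then 0, 1.9 and 3.59 with PMA, and 99, 97 and 103, then 195, 170.4 and 192 with ConA. FAM163A read 28.6, 20.6 and 20.8, then 1.16, 0 and 0 with PMA, and 22.9, 39 and 34.1, then 60.1, 67.9 and 70.1 with ConA. Its ConA change of 1.05 (adjusted p = 0.0128) would be called as a rise at an adjusted p of at most 0.05.

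NWD1 read 92.2, 82.3 and 119, then 0, 3.8 and 4.79 with PMA, and 102, 96 and 73.1, then 104, 124 and 114 normalized counts with ConA. The cadherin CDH7 read 84.8, 78.7 and 80.3, then 3.48, 4.75 and 0 with PMA, and 131, 143 and 148, then 61.1, 51.2 and 54.8 with ConA. For both, the PMA libraries stood below every other library. The difference of CDH7 (-3.47, adjusted p = 7.89e-05) lost its call without any of PMA controls 1 to 3, ConA controls 4 to 6 or ConA 1 to 3 (-3.53 to -3.41), and without PMA 3 its ConA change was itself called as a fall (-1.32). ANGPT1 (angiopoietin 1, a TIE2 ligand) fell with PMA (-3.62, ConA change 0.64), as did ITGB8, an integrin that releases active TGF-beta (-3.36, ConA change -0.02).

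Many genes of cholesterol synthesis and uptake fell with PMA. Of 24 genes, 15 fell with PMA and none rose, 1 fell with ConA (PMVK), and 12 differences were below 0 and none above. The median changes were -1.26 with PMA and -0.29 with ConA, beside -0.01 for each over all genes. HMGCS1, which makes the precursor of mevalonate, read 13357, 12951 and 12926 normalized counts in the controls and 2977, 3252 and 3099 with PMA, and 28640.3, 25833 and 24999 in the controls and 27943, 29732 and 28779.5 with ConA. Its control levels themselves stood apart, higher in the ConA experiment. MSMO1 and LSS, enzymes after squalene, changed by -2.19 and -1.86 with PMA and by -0.19 and -0.46 with ConA.

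TGF-beta and BMP genes were lower with PMA in 11 of 33 (5.99% of all genes were) and higher in 3 (3.96% were). With ConA 3 were higher (5.43% of all genes) and 3 lower (2.97%). Of their differences, 8 were below 0 (6.82% of all genes) and 3 above (3.63%). TGFB2 and TGFB3, ligands, fell with PMA (-1.56 and -1.74, ConA changes -0.40 and -0.22), as did ID1, a BMP target (-1.93, ConA change -0.53). SPARC, a collagen-binding matrix protein, read 63938, 62498 and 63222, then 21987, 21817 and 22067 normalized counts with PMA, and 122808, 123701 and 121646, then 132274, 119981 and 124593 with ConA. Its controls too were higher in the ConA experiment. Of 29 collagen chains, 8 differences were below 0 and none above. COL4A1, of basement membranes, was one of them, with changes of -0.80 and 0.77 that were not called and a difference of -1.57. The pro-apoptotic BCL2L11 (BIM) fell with PMA (-2.36, ConA change 0.87), as did the transcription factor KLF4 (-1.73, ConA change 0.91). The keratins KRT80 and KRT8, the latter an epithelial marker, changed by -2.66 and -1.22 with PMA and by 0.06 and -0.16 with ConA.

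**Figure D3:**
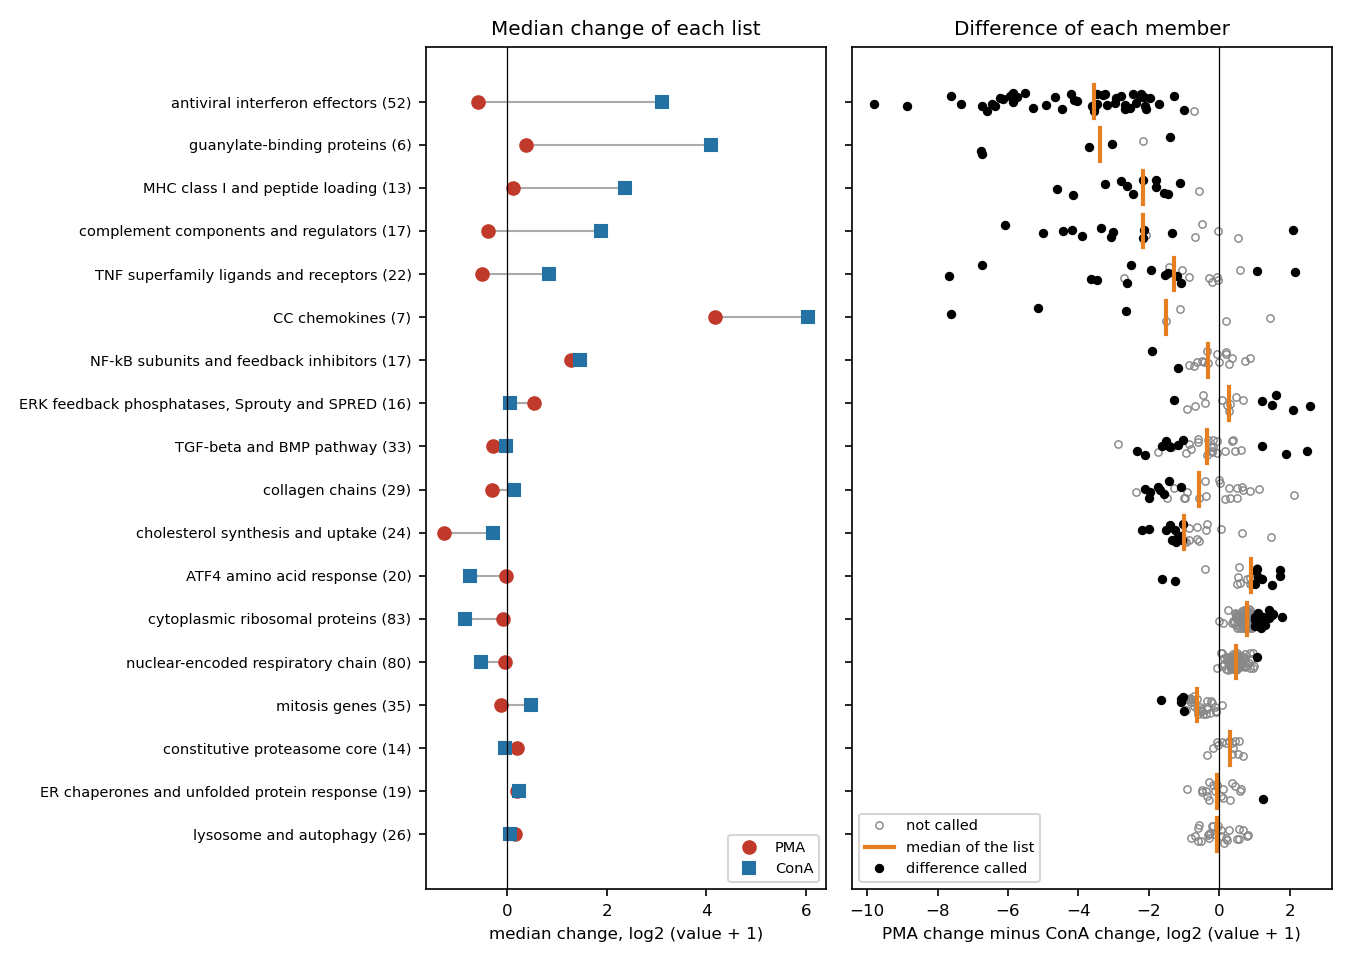
Left, median change of 18 gene lists (members tested in parentheses) with PMA (circles) and ConA (squares), as log2(value + 1) of treated minus control libraries. Right, the PMA change minus the ConA change of each member, filled where called, with the list median as a bar. The antiviral effectors (median -3.57) lie left of 0, 82 of 83 ribosomal proteins (median 0.79) lie right of it, and the medians of the proteasome core, unfolded protein response and lysosome lists are near 0.

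The 183 genes that rose with both treatments included 10 NF-kB subunits and feedback inhibitors, 5 CC chemokines and 4 genes of the interleukin-1 family, and 73 of them (39.9%) were in any list. Parts of 3 promoters are printed. They are those of CXCL8, which rose farther with PMA, of ICAM1, whose difference lay just short of a call, and of SERPINB2, the gene with the largest PMA change.
CXCL8 (chr4:73740409-73740508, plus strand): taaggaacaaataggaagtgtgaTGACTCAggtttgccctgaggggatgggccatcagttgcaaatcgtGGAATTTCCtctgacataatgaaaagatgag
ICAM1 (chr19:10270888-10270987, plus strand): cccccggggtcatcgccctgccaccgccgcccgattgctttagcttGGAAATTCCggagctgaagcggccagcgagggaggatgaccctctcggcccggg
SERPINB2 (chr18:63887556-63887655, plus strand): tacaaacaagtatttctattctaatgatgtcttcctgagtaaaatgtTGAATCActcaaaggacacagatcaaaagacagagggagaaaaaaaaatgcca

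CXCL8 holds 1 match to the AP-1 letters and 1 to the NF-kB letters, ICAM1 holds 1 of NF-kB and SERPINB2 1 of AP-1. Over all tested genes with a promoter, 4.42% held the AP-1 letters and 3.79% the NF-kB letters. Among genes that rose with both, 15.5% (20 of 129) held AP-1 and 17.1% (22 of 129) NF-kB letters. Among genes that fell with both, 10.6% (10 of 94) held AP-1 and 1.06% (1 of 94) NF-kB letters. PMA-only genes that rose had 9.04% (15 of 166) and 4.22% (7 of 166), and ConA-only genes that rose had 10.8% (31 of 288) and 9.72% (28 of 288).

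**Figure D4:**
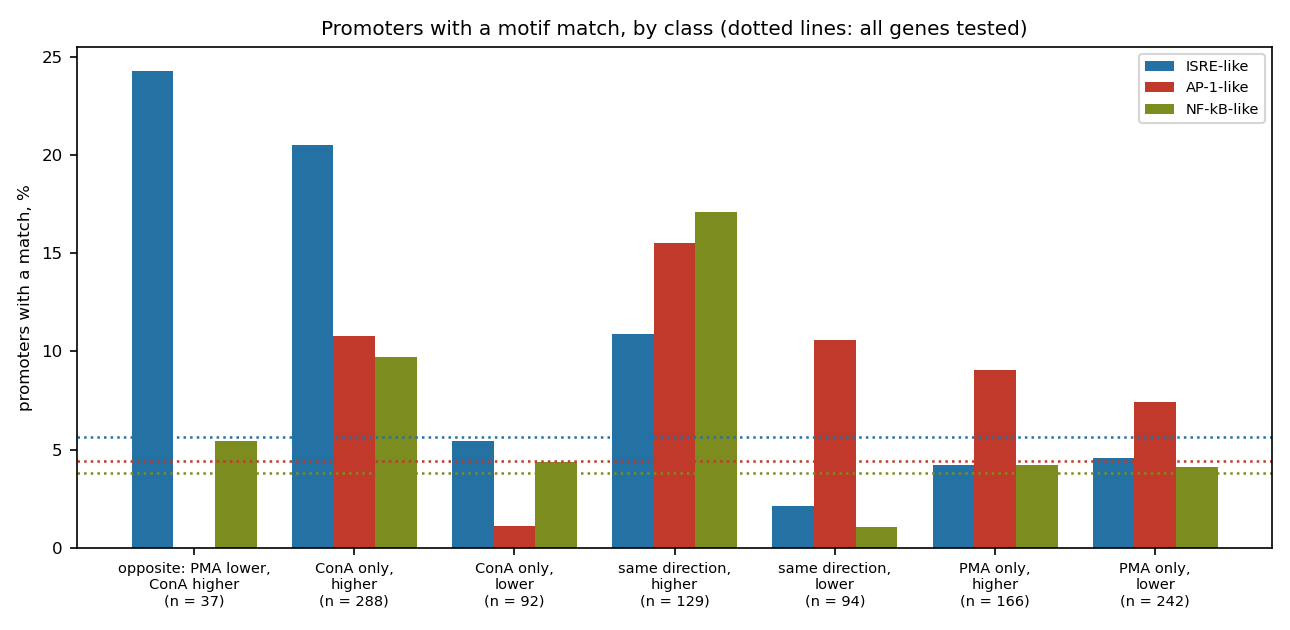
Share of promoters (y axis, percent of those with a RefSeq sequence, n under each class) that hold each motif in the 250 bases before the start, by class, with the share over all genes tested as a dotted line of the same colour. ISRE letters reach 24.3% among genes that fell with PMA and rose with ConA and 20.5% among ConA-only genes that rose, and NF-kB letters reach 17.1% among genes that rose with both.

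CXCL8 (interleukin-8, which draws neutrophils) read 736, 708 and 719 normalized counts in the PMA controls and 39161, 42629.6 and 39334 with PMA, and 385, 346 and 339 in the ConA controls and 4904, 7161 and 6236 with ConA. All treated libraries stood above all controls. The change was 5.80 with PMA and 4.08 with ConA, a difference of 1.73 (standard error 0.13, adjusted p = 5.01e-09).

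CXCL3, of the same chemokine group, was more unequal. It read 178, 181 and 164 normalized counts, then 8320.1, 8836 and 8899 with PMA, and 74, 77 and 77.1, then 174, 269 and 198 with ConA. Its difference was 4.18 (standard error 0.16, adjusted p = 3.92e-13), among the 5 largest above 0. CXCL5, the third of the group, had 0 counts in the ConA controls and 16, 12.5 and 13.5 with ConA, and 1.84, 12.5 and 1.81, then 41.8, 49.4 and 43.1 with PMA, and its PMA call was lost with PMA control 1 (2.89), PMA control 3 (2.88) or PMA 1, 2 or 3 (3.31, 3.19 and 3.29) left out. IL6 read 205, 241 and 218, then 10185, 10739 and 10510.0 with PMA, and 144, 137 and 126, then 1844, 2288 and 2172 with ConA, a difference of 1.62.

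SERPINB2 (PAI-2, an inhibitor of plasminogen activators) read 399, 445 and 432 normalized counts in the PMA controls and 63856, 67245 and 66428 with PMA, and 66.7, 72 and 63.1 in the ConA controls and 695, 1345 and 1125 with ConA. Control levels differed between the experiments by more than 2-fold. The difference was 3.37 (standard error 0.21). The collagenase MMP1 (5.65 with PMA and 1.78 with ConA), BMP2 (3.78 and 1.90), BCL2A1, an anti-apoptotic BCL2 relative (4.56 and 2.48), and SERPINA1 (alpha-1 antitrypsin, 4.98 and 2.08) were also called larger with PMA.

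Larger rises with ConA were found for CCL5, which draws T cells and monocytes. It read 797, 626 and 586 normalized counts in the PMA controls and 1385, 1489 and 1591 with PMA, and 96.9, 108 and 106 in the ConA controls and 34592, 52169 and 52639 with ConA. Its difference was -7.61 (standard error 0.18), with control levels that stood apart, again higher in the experiment in which T and NK cell markers were listed. SOD2, the mitochondrial superoxide dismutase, read 6681, 6429 and 6606, then 32433, 33008 and 33020.2 with PMA, and 3852, 3751 and 3664, then 83278, 92523 and 90892 with ConA. MMP13 changed by 2.32 with PMA and 5.77 with ConA, the lysosomal protease CTSS by 2.20 and 6.10, the inhibitor of apoptosis BIRC3 by 2.19 and 4.11, and TLR2 by 1.89 and 3.52, whose difference lost its call after quantile normalization (-1.17).

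NF-kB subunits and their feedback inhibitors rose to like degrees. Of 17, 12 rose with PMA and 10 with ConA, none fell, and 10 rose with both, with medians of 1.28 and 1.46. Only BIRC3 and TNFAIP3 had a called difference, both below 0. NFKB1, the p50 precursor, read 1968, 1903 and 1926 normalized counts, then 4711, 4686 and 4678 with PMA, and 2478, 2383 and 2487, then 4917, 5291 and 5436 with ConA. The 95% interval of its difference was 0.06 to 0.33, that of NFKB2 was -0.47 to -0.16 and that of TRAF1 was -0.66 to -0.21, so these differed by less than 2-fold. NFKBIA, the inhibitor that holds NF-kB in the cytosol, changed by 1.55 and 2.26 (interval of the difference -0.86 to -0.55). CD274 (PD-L1) changed by 1.36 and 1.45, with an interval of the difference of -0.29 to 0.13.

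ICAM1, an adhesion ligand of leukocyte integrins, read 684, 596 and 645 normalized counts in the PMA controls and 13022, 12602 and 13192 with PMA, and 429, 444 and 432 in the ConA controls and 15882, 18281 and 18583 with ConA. Its difference (interval -1.18 to -0.82) lay just short of the threshold. It was called with PMA control 2 (-1.05), PMA 3 (-1.01), ConA control 5 (-1.01) or ConA 1 (-1.07) left out, and also without PMA 1. After quantile normalization it was called too (-1.16), again as a larger rise with ConA.

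Ranked by the smaller of the 2 changes, the genes that rose most with both were CCL3, ACOD1, TNIP3, MRGPRX3 and CCL3L1. CCL3, a macrophage inflammatory chemokine, read 53.5, 50.1 and 56.9 normalized counts, then 4916, 5389.6 and 5457 with PMA, and 2.08, 9 and 6.01, then 456, 572 and 506 with ConA. Both controls and treated libraries were higher in the PMA experiment, and the changes of 6.59 and 6.41 had a difference of 0.18 (interval -0.61 to 0.98), which was 1.30 and called with a pseudocount of 10. CCL3, CCL3L1 and CCL3L3 are near-identical copies among which reads may be split. ACOD1, which makes itaconate, read 3.69, 3.58 and 2.71, then 318, 374 and 342 with PMA, and 0 in all 3 controls and 85.1, 107 and 114 with ConA, at least 33.5-fold higher. The sign of its difference (-0.35, not called) depended on the pseudocount, being called at -3.32 with 0.1 and at 1.26 with 10. TNIP3, a feedback inhibitor of NF-kB, read 3.69, 4.47 and 5.42, then 121, 145 and 147 with PMA, and 3.13, 0 and 3.01, then 82.1, 113 and 106 with ConA. MRGPRX3, an orphan G-protein-coupled receptor, changed by 4.61 and 4.77.

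Genes that fell with both were led by GALNT15, FOXS1, DRD2, PADI3 and FAIM2. GALNT15, which starts O-glycans, read 539, 529 and 577 normalized counts in the PMA controls and 10.4, 6.65 and 22.7 with PMA, and 961, 878 and 1002 in the ConA controls and 107, 108 and 71 with ConA. Its difference of -2.10 was not called (adjusted p = 1.30e-04) and passed without PMA 3 (-2.55). DRD2, a dopamine receptor, read 687, 633 and 761, then 55.7, 60.8 and 46.7 with PMA, and 1461, 1447 and 1562, then 249, 163 and 179.7 with ConA. Controls of GALNT15 and DRD2 were higher in the ConA experiment. PADI3, which converts arginine to citrulline in skin proteins, changed by -4.04 and -2.76 and FAIM2, an inhibitor of Fas signalling, by -2.98 and -2.48. FOXS1, a forkhead transcription factor, read 7.38, 9.84 and 18.1 and then 0 in all PMA libraries, at least 3.55-fold lower. With ConA it read 39.6, 48 and 57.1, then 9.01, 3.14 and 2.7, and this call was lost without ConA control 5, ConA control 6, ConA 2 or ConA 3 (-3.18 to -2.92). VCAN (versican, a matrix proteoglycan) and TIMP3 fell with both and farther with PMA (-3.07 and -3.51) than with ConA (-1.61 and -1.58). SCD, which makes monounsaturated fatty acids, did so too (-2.64 and -1.05), and its ConA call was lost after quantile normalization (-0.85).

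Cell cycle genes shifted apart by less than the threshold in most members. Of 35 mitosis genes, 2 rose with ConA (5.43% of all genes did) and 1 fell with PMA (5.99% did). Called differences were below 0 for 5 (6.82% of all genes) and above 0 for none. Called or not, the difference was below 0 for 34 of 35, with medians of -0.13 with PMA and 0.48 with ConA. TOP2A, the topoisomerase of dividing cells, read 5197, 5053 and 5186, then 2693, 2695 and 2799 normalized counts with PMA, and 7316, 6614 and 6782, then 11553, 11669.7 and 11704 with ConA, a difference of -1.67 with neither change called. Of 40 replication and G1/S genes, 10 rose with ConA (5.43% of all genes did) and none was called with PMA. Called differences were below 0 for 2, GINS1 (-1.14) and ORC6 (-1.07), beside 6.82% of all genes. The call of ORC6 was lost after quantile normalization (-0.97). Zinc finger genes named ZNF, mostly transcriptional repressors, had 17 of 435 higher and none lower with ConA, 5 higher and 9 lower with PMA, and 33 differences below 0 and 3 above (14 and 3 after quantile normalization). These numbers lie near or under those of all genes, of which 5.43% were higher with ConA and 6.82% had a difference below 0.

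Beside 81.6% of all genes without a call in any of the 3 tests, groups with few calls were ER chaperones and the unfolded protein response (18 of 19 without a call, medians of 0.19 with PMA and 0.23 with ConA), lysosome and autophagy genes (25 of 26) and the proteasome core (14 of 14). Of 17 cytosolic heat shock proteins, 4 rose with PMA and none with ConA, among them HSPA1A (2.23, ConA change 0.91), whose reads may be split with the near-identical HSPA1B.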

How the data were processed

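RNA-seq of polyadenylated RNA from 12 HT1080 libraries was made by a service company. Per the labels, the submitters' processing notes name Partek, STAR, Bowtie2, DESeq2 and the builds hg19 and mm10, without roles. Deposited signal values are normalized counts, which the authors divided by 1 factor per library in each of 2 tables. The factor, estimated from values between 5 and 60, turned 80.2% to 82.6% of these into whole numbers (tolerance 0.02), so whole reads were not recovered and no count test was run. Columns of other series numbered 0.

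Genes listed in both tables with a mean of at least 10 in either (15181 of 15459) were fitted together with limma 3.58.1 (R 4.3.3) on log2(value + 1), with 4 group means and a variance trend, with Benjamini-Hochberg adjustment over all of them. A fold on this scale understates the change of low genes. The call thresholds were 1 (absolute log2 change) and 0.0001 (adjusted p). Exact permutation of 3 libraries against 3 gives no p under 0.1 and was not used. The fit was tested on simulated data. Changes were set there only in genes well above the minimum mean, so the test does not cover genes with few reads. For a group at 0, the fold was taken against 3 estimated reads per library. Genes named were, per class and direction, the 5 with the largest change (for genes called with both, the smaller of the 2) among those without overlap of treated and control libraries, or all of a class and direction of 10 or fewer. The 5 largest differences each way were added, and list members whose difference was called or, for lists with 5 or fewer of these or named for lacking them, any member. RefSeq promoters (GRCh38.p14) were matched by symbol, and genes without an entry were left out of the shares. The members, the 75 gene lists (74 with members tested), the 6 marker lists and the classes were chosen with earlier results of these data known. Replicate numbers in the PMA experiment were not used as pairs in the main fit. Alternatives (12 settings and each of 12 libraries left out) are given in the closing section. Some genes are not reported here. Python 3.11.15 made the tables (pandas 2.3.3, numpy 2.4.6) and figures (matplotlib 3.10.9).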

Additional observations from a re-analysis of the deposited data

Results flagged for a closer look

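Whether the treatments had different effects was tested directly, and 1587 genes passed the thresholds for the difference between the 2 changes. Of the genes called with both treatments, 67 went in opposite directions, and their differences are among those tested.

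Genes listed in 1 table only were outside every comparison and were not tested. Of 532 genes in the ConA table alone, 173 were counted as higher and 11 as lower. For a gene to be higher, every treated library had to stand above every control. Its treated mean also had to be at least 10 normalized counts and at least 2-fold the control mean, on (mean + 1). For lower genes, treated and control were exchanged. Of 642 genes in the PMA table alone, 104 stood higher and 34 lower by the same rule.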

How the results depend on the processing

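No called change or difference of a named gene turned its sign under the 12 settings or with any of 12 libraries left out. The difference of ACOD1, not called as reported, was called below 0 with a pseudocount of 0.1 (-3.32) and above 0 with 10 (1.26). Calls of named genes were lost 27 times when a change beyond 1 was tested, among them the ConA falls of NRG1, ERRFI1, FLRT2, SLC14A1, ATP2B4 and ASB1 and the PMA fall of ISG15, 17 times without the variance trend (among them the differences of C5AR1, NWD1, KRT3, IL16, LTB and TNFAIP3 and the PMA changes of CCL5 and SLC15A3), 10 times after quantile normalization, 11 times with a pseudocount of 0.1, 4 times with 10 and 6 times when each table was fitted alone. With the libraries left out in turn, the difference was called for 1428 to 1592 genes, PMA changes for 1365 to 1505 and ConA changes for 1149 to 1337, and the classes held 505 to 534 genes (PMA only), 449 to 554 (ConA only), 283 to 318 (same direction) and 59 to 68 (opposite). Testing for a change beyond 1 at an adjusted p of at most 0.05 gave 907 differences, 934 PMA and 743 ConA calls, and classes of 299, 322, 155 and 26 genes in that order. An adjusted p of at most 0.05 alone gave 844 PMA-only genes, 493 in the same direction and 112 opposite. Quantile normalization left 43 opposite genes, 40 of them shared with the 67. All other settings kept these counts within 1.5 times. With the PMA replicate number as a block, 1548 differences were called. Over all genes, the deviations of same-numbered libraries correlated little (r of -0.0279, 0.0398 and 0.0444). This cannot exclude pairing or a shared preparation, since a few genes may deviate together. SNORA73B, of the PMA table alone, read 44.2 in PMA control 3 and 119.7 in PMA 3, against 1.9 to 5.37 in the other libraries. The ConA libraries and their controls share no number. The cause of these changes was not tested. The depth limits genes with a few reads in a group, whose fold depends on the pseudocount.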

Other observations

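Genes listed in 1 table only belong to none of the classes. In the ConA table alone, CXCL10, a ligand of the CXCR3 receptor as is CXCL11, read 12.5, 28 and 17 normalized counts in the controls and 16553, 23373 and 22294 with ConA. CXCL9, the last of these ligands, read 0, 1 and 0 and then 25, 59.6 and 47.6. IDO1, which degrades tryptophan, read 9.38, 4 and 1 and then 789, 943 and 903, and ZBP1, a sensor of Z-form nucleic acid, read 1.04, 1 and 1 and then 326, 344 and 398. These genes were not listed in the PMA table, which gives no value of theirs with PMA.

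In the PMA table alone, LINC02392, a long non-coding RNA, read 9.22, 8.94 and 14.4 normalized counts in the controls and 522, 514 and 484 with PMA. LCE1F, of the cornified envelope of skin, read 12, 8.05 and 15.3 and then 176, 165 and 206. IL13RA2, a decoy receptor for interleukin-13, read 14.8, 10.7 and 13.5 and then 136, 171 and 152, and CLEC5A, a myeloid lectin receptor, read 5.53, 6.26 and 8.12 and then 131, 164 and 154. The killer cell gene GNLY read 88.5, 58.1 and 105 in the controls and 229, 218 and 253 with PMA.

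The lists covered 26 of the 57 genes that were lower with PMA and higher with ConA (45.6%), beside 2698 of the 15181 genes tested (17.8%). They covered 80 of the 329 PMA-only genes that fell (24.3%) and 55 of the 218 that rose (25.2%), so most genes of these classes lie outside the lists.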
